A study of Mus musculus with 95 samples.

Results

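The genes described here encode 6 components of major histocompatibility complex (MHC) class I antigen processing. They were chosen by name, as the probe sets that the platform annotation pairs with B2m, Tap1, Tapbp, Psmb8, Psmb9 or Psmb10 and with no other gene. This gave 9 of the 12487 probe sets on the array and 6 of the 8252 genes measured. The rule reads names only, but the 6 genes were picked with earlier results of these data known. B2m, Psmb8, Psmb9 and Psmb10 have 1 probe set each, Tap1 has 2 and Tapbp has 3; each gene was followed through its brightest probe set.

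The data are hybridization intensities of total RNA from whole lung homogenates of 95 mice, 1 array each, in 19 groups defined by strain, day and exposure. The mice were C57BL/6 or CD40L-KO, a strain that lacks CD40 ligand, and the labels describe all of them as females of 8 weeks. Exposed mice (60 arrays) were housed with a mouse heavily infected with Pneumocystis murina, a fungus that colonises mouse lung, and unexposed mice (35 arrays) were controls without such a seeder mouse. The question set by the design is how lung transcripts change with exposure in mice with and without CD40 ligand. C57BL/6 mice were taken at days 7 (8 exposed, 4 unexposed), 14 (8 and 6), 21 (6 and 5), 32 (3 and 2), 34 (10 and 5) and 41 (10 and 5), with 3 exposed mice at day 75. CD40L-KO mice were taken at day 32 (3 exposed, 3 unexposed), at day 35 (4 exposed) and, exposed only, at days 39 (2) and 75 (3). The 5 unexposed CD40L-KO mice set against day 35 carry the label day 14. They were assumed to be the 5 controls that the design text gives that experiment, a link that no source states outright, and the labelled day (14 against 35) cannot be told apart from exposure in any day 35 result. Because the first 3 experiments kept exposed and unexposed mice in separate cages, an effect of the cage cannot be told apart from exposure in them. No source used here names the experiment of days 39 and 75, and no unexposed mice share those days.

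Cells display fragments of their own proteins on MHC class I molecules, where CD8 T cells inspect them. The proteasome cuts the proteins; interferon and other inflammatory signals replace its constitutive catalytic subunits with Psmb8 (LMP7), Psmb9 (LMP2) and Psmb10 (MECL-1), which form the immunoproteasome. The peptides cross into the endoplasmic reticulum through the transporter that Tap1 forms with Tap2, tapasin (Tapbp) holds the empty class I molecule at that transporter, and beta-2 microglobulin (B2m) is the invariant light chain of the finished molecule.

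Some properties of the arrays bear on every comparison. Lung markers were present: Sftpc, the surfactant gene of alveolar type 2 cells, was at 5323 intensity units or more on every array, and Scgb1a1, the club cell secretoglobin, at 4637 or more, while the probe set of Sftpd was dim throughout (3.90 to 36.0). Cd40lg lay between 3.05 and 3.75 on the log2(intensity + 8) scale, whose floor is 3, in both strains, so it does not check the genotype labels. Markers of squamous epithelium were high on 16 arrays, with a mean log2 score of 7.00 or more against 5.28 or less on the others; at day 34 they include 4 of the 5 C57BL/6 controls and 3 of the 10 exposed C57BL/6 mice, and among CD40L-KO mice of day 32 they include 2 of the 3 controls and 1 of the 3 exposed. The Y-linked gene Eif2s3y exceeded Xist on 17 arrays, which are all arrays of 5 groups (C57BL/6 day 75, CD40L-KO days 39, 75 and 35, and the day 35 controls) despite the female label. Array medians lay between 35.5 and 46.3 intensity units, and no 2 arrays were identical. In whole lung, more cells of a type and more RNA per cell cannot be told apart. The p-values below set each difference of means against the spread between mice within groups. That spread was pooled over the groups of a fit and moderated across genes by limma.

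Promoter windows were read for the 6 genes from RefSeq on build GRCm38.p6, from 250 bases before to 50 bases after the annotated start. Tap1 is shown because its window holds most of that of Psmb9, its neighbour on the other strand of chromosome 17, and B2m and Psmb8 because each holds a match to a motif read by interferon-activated factors. Capitals mark the match to a searched motif in each window. Motifs were searched on both strands: GAAA, any 2 bases and GAAA, the core of the interferon-stimulated response element (ISRE); TTCNNNGAA, the gamma-activated site (GAS) bound by STAT factors; and GGGCGG, the GC box bound by Sp1.
Tap1 (chr17:34187306-34187605, plus strand): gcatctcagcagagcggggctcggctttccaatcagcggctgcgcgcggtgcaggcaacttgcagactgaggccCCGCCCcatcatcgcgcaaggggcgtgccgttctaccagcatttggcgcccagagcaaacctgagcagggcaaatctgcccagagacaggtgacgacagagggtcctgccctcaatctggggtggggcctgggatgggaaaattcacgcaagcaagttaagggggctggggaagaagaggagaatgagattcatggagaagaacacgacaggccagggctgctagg
Psmb8 (chr17:34197945-34198244, plus strand): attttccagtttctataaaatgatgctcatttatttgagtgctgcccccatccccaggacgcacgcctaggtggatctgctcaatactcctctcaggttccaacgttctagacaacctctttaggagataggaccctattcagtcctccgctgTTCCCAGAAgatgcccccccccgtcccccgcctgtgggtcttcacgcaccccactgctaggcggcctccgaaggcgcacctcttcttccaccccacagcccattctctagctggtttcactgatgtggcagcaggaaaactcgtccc
B2m (chr2:122147437-122147736, plus strand): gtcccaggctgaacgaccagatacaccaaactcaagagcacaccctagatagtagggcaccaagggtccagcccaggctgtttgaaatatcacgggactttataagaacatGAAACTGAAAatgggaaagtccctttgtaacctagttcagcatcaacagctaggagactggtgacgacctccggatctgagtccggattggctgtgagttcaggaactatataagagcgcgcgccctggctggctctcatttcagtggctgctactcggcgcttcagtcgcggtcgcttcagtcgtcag
The Tap1 window overlaps the minus-strand Psmb9 window (chr17:34187281-34187580) over 275 bases, and the annotated starts lie 226 bases apart. The same GC box, read as CCGCCC from Tap1, begins 176 bases before the Tap1 start and 55 bases before the Psmb9 start. In the B2m window GAAACTGAAA begins 139 bases before the start, and in the Psmb8 window TTCCCAGAA begins 97 bases before it. Tapbp (chr17:33919228-33919527, plus strand) had a GC box only, and Psmb10 (chr8:105938343-105938642, minus strand) had none of the 3 motifs. Of all 32851 windows, 3.44% held the ISRE letters, 8.3% the GAS letters and 35.7% the GC box, and no match in these windows overlapped another motif. Along chromosome 17 the order was H2-DMb1, Psmb9, Tap1, Psmb8, Tap2, so 3 of the 6 genes are adjacent within the class II region; Tapbp lies elsewhere on the same chromosome, while B2m and Psmb10 are on chromosomes 2 and 8.

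At day 32 of exposure, C57BL/6 lungs held more of the transcripts for the transporter and the immunoproteasome. In the limma fit of the 4 groups of that experiment, 4 of the 6 genes rose, against 1.35% of all genes called higher. Tap1, Psmb9, Psmb8 and Psmb10 rose, while the values of Tapbp and B2m did not pass the test. The median difference of the 6 genes was 1.56 on the log2 scale, beside -0.01 over all genes.

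Psmb8, the immunoproteasome subunit with chymotrypsin-like activity, had intensities of 379 and 406 in the 2 unexposed mice. The 3 exposed mice gave 1275, 849 and 1575. Every exposed mouse was above both unexposed mice, and the difference of means was 1.59 on the log2(intensity + 8) scale (SE 0.24, adjusted p = 0.0153, 3.00-fold). Psmb9, which replaces the constitutive subunit Psmb6, measured 186 and 235 in the unexposed mice. Exposed mice gave 802, 507 and 966, again without overlap, a difference of 1.77 (SE 0.26, adjusted p = 0.0124, 3.41-fold). Psmb10, the counterpart of Psmb7, measured 311 and 330 without exposure. With exposure it measured 923, 746 and 1210, a difference of 1.53 (SE 0.21, adjusted p = 0.0104, 2.89-fold). Exposed mouse 2 was the lowest of the 3 for each immunoproteasome subunit.

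Tap1, the transporter subunit, gave 187 and 193 in the unexposed mice. In the exposed mice it gave 965, 480 and 1150, a difference of 2.05 (SE 0.29, adjusted p = 0.0118, 4.14-fold). Mouse 2 was again the lowest exposed animal and was above both controls. Tapbp measured 531 and 733 without exposure and 1110, 930 and 1410 with it. Its groups did not overlap, yet the difference of 0.85 (SE 0.21) had an adjusted p of 0.0678. B2m was 1888 and 1858 without exposure and 2694, 2637 and 2562 with exposure, a difference of 0.49 (SE 0.17, adjusted p = 0.169). Exposed and unexposed mice were thus apart for 6 of 6 genes, a separation that 17% of all genes showed in the same direction with groups of 3 and 2.

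These 4 calls rest on few arrays and did not hold in every setting. With either unexposed mouse left out, 0 of the 6 genes passed, with differences of 1.49 to 2.07 for the 4 genes and adjusted p-values from 0.063 to 0.135. Leaving out exposed mouse 1 ended the call of Psmb8 (1.54, adjusted p = 0.0503), and leaving out exposed mouse 2 brought Tapbp past the threshold (0.99, adjusted p = 0.0214). Leaving out the squamous arrays, none of which is a C57BL/6 array of that day, kept the differences and gave adjusted p-values of 0.0758 to 0.0838, in a fit that called 3 of all genes higher and 1 lower.

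**Figure D1:**
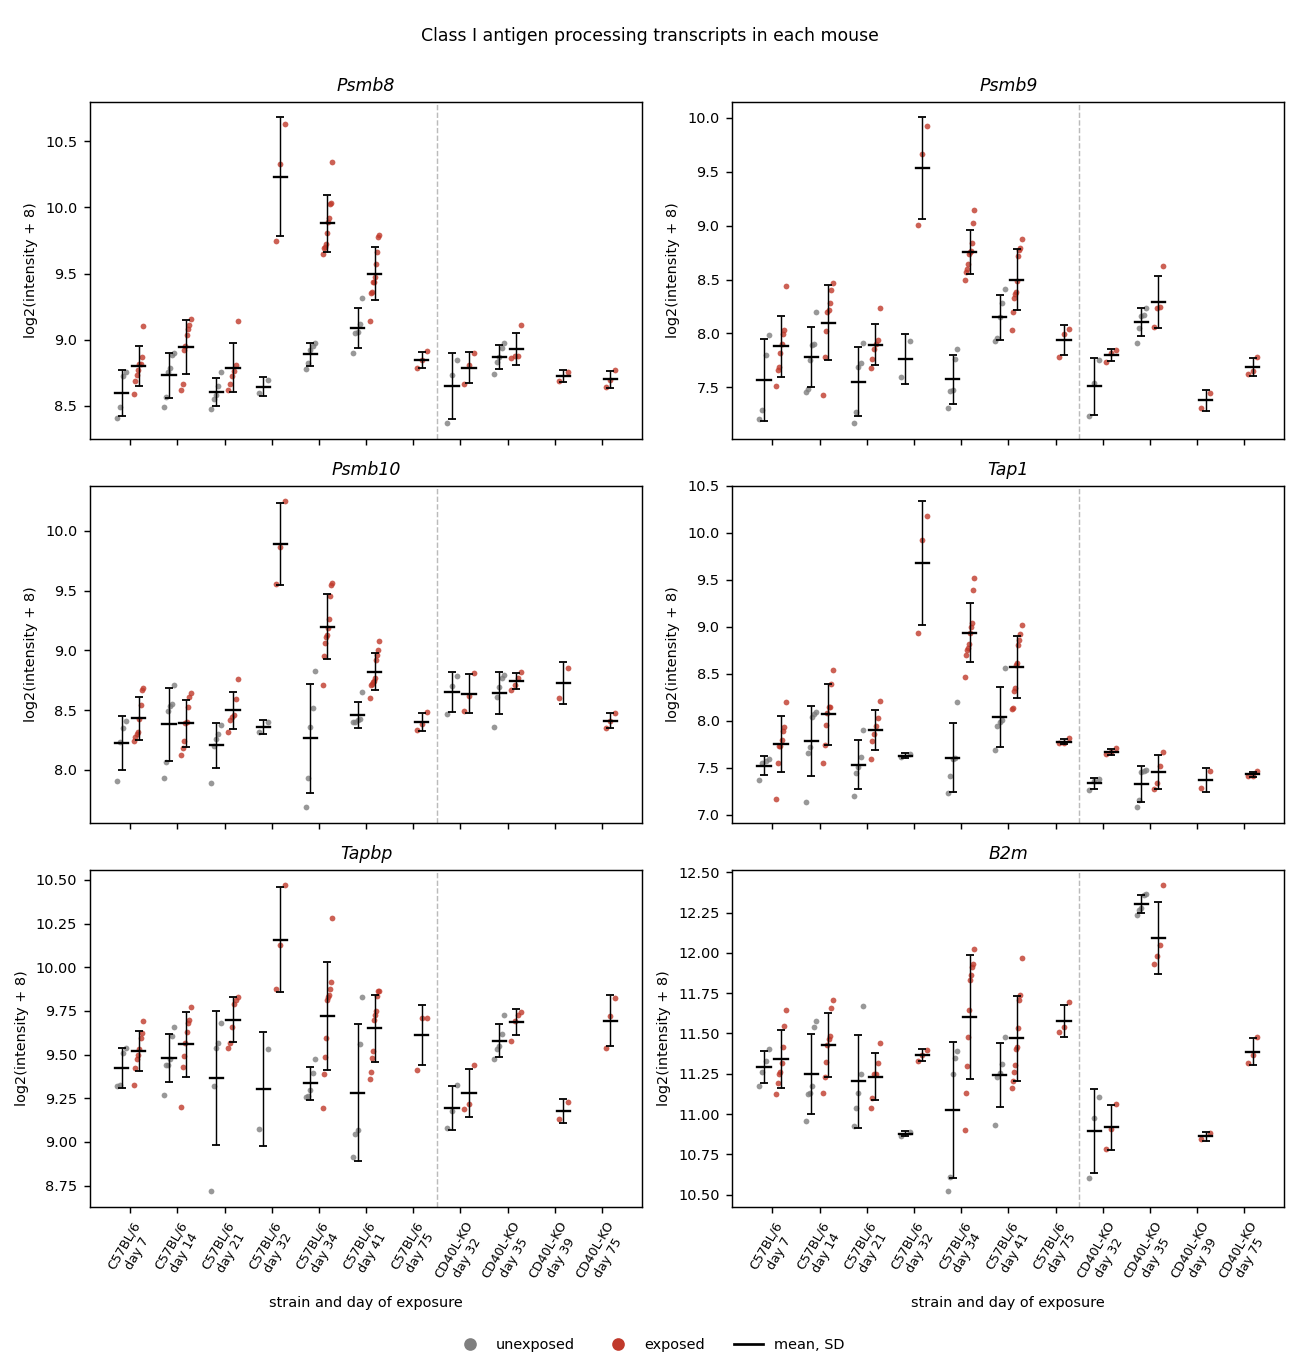
Log2(intensity + 8) of the brightest probe set of each gene in each of the 95 mice, by strain and day, exposed in red and unexposed in grey, with black lines for the group mean and SD; the grey points at CD40L-KO day 35 are the controls labelled day 14, and vertical axes differ between panels. Exposed C57BL/6 mice of days 32, 34 and 41 have the highest means for Tap1, Psmb8, Psmb9 and Psmb10, whereas B2m is highest in the CD40L-KO day 35 experiment, at means of 12.30 without and 12.10 with exposure.

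At day 34, with 10 exposed and 5 unexposed C57BL/6 mice, the same 4 genes and B2m passed the test, 5 of 6, where 5.26% of all genes were called higher. The median difference of the 6 genes was 0.96 on the log2 scale and that of all genes was -0.01. Tap1, Psmb8 and Psmb9 had no overlap between exposed and unexposed mice, which held for 1.26% of all genes in that direction.

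Psmb8 in the unexposed mice was 8.82, 8.78, 8.92, 8.96 and 8.98 on the log2(intensity + 8) scale. Its lowest, median and highest exposed values were 9.65, 9.85 and 10.35, so all 10 exposed mice lay above all 5 controls. The difference was 0.99 (SE 0.11, adjusted p = 3.63e-07). Psmb9 was 7.46, 7.31, 7.76, 7.48 and 7.86 in the controls. The exposed mice ran from 8.49 through a median of 8.74 to 9.14, also without overlap, a difference of 1.18 (SE 0.13, adjusted p = 4.87e-07). Psmb10 was spread more widely among the controls, at 8.83, 7.93, 8.36, 7.69 and 8.52. Its exposed values ran from 8.71 through 9.16 to 9.57, and 9 of 10 exceeded the highest control. The Psmb10 difference was 0.94 (SE 0.14, adjusted p = 4.58e-05).

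Tap1 was 7.23, 7.41, 7.59, 7.60 and 8.20 in the controls of day 34. In the exposed mice it ran from 8.47 through 8.87 to 9.52, above every control, a difference of 1.33 (SE 0.18, adjusted p = 5.13e-06). The control numbered 5 was the highest for Tap1, Psmb8 and Psmb9 and the lowest for B2m. Tapbp was 9.26, 9.47, 9.26, 9.30 and 9.39 in the controls and ran from 9.19 through 9.82 to 10.28 in the exposed mice. The 2 groups overlapped, and its difference of 0.39 (SE 0.15) had an adjusted p of 0.0949. B2m was 10.61, 11.25, 11.34, 11.39 and 10.52 in the controls, a wide spread, and 10.90, 11.74 and 12.03 were the lowest, median and highest exposed values. Its difference of 0.58 (SE 0.18, adjusted p = 0.0354) was the smallest of those that passed, and 7 of 10 exposed mice exceeded the highest control. The B2m call was lost when any of 6 single mice was left out, with adjusted p-values of 0.0549 to 0.126, and with the replicate number as a block (0.63, adjusted p = 0.0564). Tapbp passed with that block (0.54, adjusted p = 0.0113), with all arrays in 1 fit (adjusted p = 0.0172) and without exposed mouse 8 (0.44, adjusted p = 0.0448).

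The only day 34 control without high squamous markers is mouse 5. Against that single control, with the squamous arrays of both groups left out, no gene of the 6 passed. That fit called 12 of the 8252 genes higher and 5 lower, where the fit of all mice called 434 and 244. The differences were then 0.72 for Tap1, 0.92 for Psmb8, 0.90 for Psmb9, 0.66 for Psmb10 and 1.06 for B2m. With the squamous score as a covariate and all arrays kept, the differences were 1.24 for Tap1, 0.94 for Psmb8, 1.11 for Psmb9, 0.87 for Psmb10 and 0.71 for B2m, and all 5 passed. In a comparison chosen after seeing the data, the 7 exposed day 34 mice without squamous signal were set against 6 such unexposed mice of days 34 and 41. Tap1 (0.85), Psmb8 (0.83), Psmb9 (0.66) and Psmb10 (0.72) passed there, and B2m (0.46, adjusted p = 0.128) and Tapbp (0.45, adjusted p = 0.0796) did not, where 432 of all 8252 genes were called. The ratio of 3' to 5' Gapdh probe signal, a sign of RNA degradation, also differed: it spanned 0.27 to 2.13 (log2) in the day 34 controls and -0.16 to 1.59 in the exposed mice. With that ratio as a covariate Tap1 (1.15), Psmb8 (0.92), Psmb9 (1.09) and Psmb10 (0.84) passed and B2m did not (0.68, adjusted p = 0.0716).

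At day 41 of exposure in C57BL/6 mice 0 of the 6 genes passed in the limma fit, where 0.388% of all genes were called. At an unadjusted p under 0.05 there were 5 of the 6 genes and 610 of all genes. Psmb8 had controls at 9.31, 9.06, 8.90, 9.12 and 9.05 and exposed mice from 9.14 through 9.45 to 9.79. Its difference of 0.41 (SE 0.11, adjusted p = 0.0956) had the smallest p of the 6 genes, and 9 of 10 exposed mice exceeded the highest control. It passed without exposed mouse 6 (0.45, adjusted p = 0.0476) and with all arrays in 1 fit (adjusted p = 0.0134). Tap1 controls were 8.56, 8.01, 7.69, 7.99 and 7.94, and exposed mice ran from 8.13 through 8.61 to 9.02, a difference of 0.54 (SE 0.18, adjusted p = 0.278). Psmb9 differed by 0.35, Psmb10 by 0.36, Tapbp by 0.37 and B2m by 0.23, with overlapping groups.

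The controls themselves differed between the days. The day 41 controls averaged 8.04 for Tap1, 8.15 for Psmb9 and 9.09 for Psmb8, against 7.61, 7.57 and 8.89 in the day 34 controls of the same experiment. Exposed means were 8.57, 8.50 and 9.50 at day 41 against 8.94, 8.76 and 9.88 at day 34. The change in the exposure effect from day 34 to day 41 was -0.83 for Psmb9 (SE 0.19, adjusted p = 0.0803), -0.80 for Tap1 (SE 0.25, adjusted p = 0.23) and -0.58 for Psmb8 (SE 0.15, adjusted p = 0.151). None of the 6 genes passed that test, in which 0.109% of all genes were called. At an unadjusted p under 0.05 there were 4 of the 6 genes and 10.7% of all genes. Without day 34 control 5 both Psmb9 (-0.90, adjusted p = 0.0158) and Tap1 (-0.94, adjusted p = 0.0469) passed. Psmb9 alone passed when exposed mouse 3, 4 or 5 of day 41 was left out (adjusted p 0.037 to 0.0498).

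Before day 32 the 6 genes stood little above their controls. At day 7 no gene of the array passed in the limma fit (0% of 8252, 545 at an unadjusted p under 0.05), and the 6 differences lay between 0.05 for B2m and 0.31 for Psmb9, none at an unadjusted p under 0.05. At day 14, where 0.267% of all genes were called, 0 of the 6 passed; the differences ran from 0.01 for Psmb10 to 0.32 for Psmb9, and Psmb8 (0.21) had an unadjusted p of 0.0297. At day 21, with 0% of all genes called and 959 at an unadjusted p under 0.05, Tap1 differed by 0.37 (SE 0.17), Tapbp by 0.34 (SE 0.12) and Psmb10 by 0.29 (SE 0.13), each at an unadjusted p under 0.05. Their adjusted p-values were 0.414, 0.314 and 0.393. Tap1 at day 21 was 7.19 to 7.90 in the controls (median 7.51) and 7.59 to 8.21 in the exposed mice (median 7.90). All 6 exposed mice were above the control mean, and 3 were above every control.

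**Figure D2:**
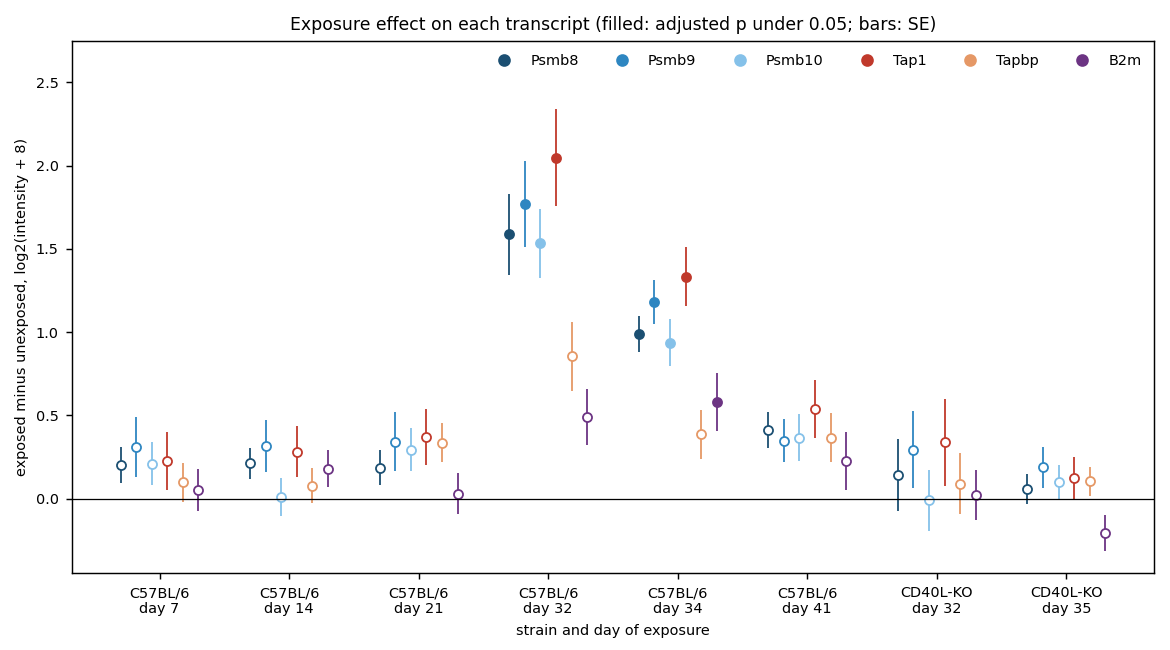
Difference of mean log2(intensity + 8), exposed minus unexposed, for each gene in the 8 exposure comparisons, with bars for the SE of the limma fit and filled points where the adjusted p over all genes is under 0.05. Filled points occur at C57BL/6 days 32 and 34 only, with Tap1 at 2.05 and 1.33, and the CD40L-KO values lie between -0.21 and 0.34.

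In CD40L-KO mice none of the 6 genes passed at either time. At day 32 the differences lay between -0.01 for Psmb10 and 0.34 for Tap1, where 0.0727% of all genes were called, and 0 of the 6 and 1149 of all genes had an unadjusted p under 0.05. Tap1 was 7.36, 7.38 and 7.26 without exposure and 7.71, 7.66 and 7.64 with it. The 2 groups did not overlap, as for 13.6% of all genes in that direction, and the difference of 0.34 (SE 0.26) had an adjusted p of 0.600. Psmb8 was 8.84, 8.37 and 8.73 without exposure and 8.67, 8.90 and 8.81 with it, and the groups overlapped. Of the 3 controls 2 are squamous arrays, and without the squamous arrays 0 of the 6 genes passed as well.

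At day 35 the differences lay between -0.21 for B2m and 0.19 for Psmb9 in a limma fit that called 0% of all genes (771 at an unadjusted p under 0.05, 0 of them among the 6). Tap1 was 7.08, 7.16, 7.46, 7.45 and 7.47 in the controls and 7.33, 7.52, 7.27 and 7.67 in the exposed mice. Psmb8 was 8.74, 8.83, 8.94, 8.87 and 8.97 in the controls and 8.86, 8.88, 8.88 and 9.11 in the exposed mice. Psmb9 was 7.91, 8.17, 8.05, 8.24 and 8.17 against 8.24, 8.06, 8.25 and 8.63. Exposed and control mice overlapped for each of these genes, although 3 of the 4 exposed mice exceeded every control for Psmb9. The 95% intervals of the differences were -0.16 to 0.40 for Tap1, -0.15 to 0.26 for Psmb8 and -0.09 to 0.47 for Psmb9. The upper bounds lie below the C57BL/6 differences of day 34.

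The difference between strains in the exposure effect was tested directly. For CD40L-KO day 35 minus C57BL/6 day 34, it was -1.21 for Tap1 (SE 0.25, adjusted p = 0.0214), -0.93 for Psmb8 (SE 0.16, adjusted p = 0.00584) and -1.0 for Psmb9 (SE 0.19, adjusted p = 0.0119). These 3 of the 6 genes passed, and 0.473% of all genes were called in that direction. Psmb10 (-0.84, adjusted p = 0.132), B2m (-0.79, adjusted p = 0.244) and Tapbp (-0.28, adjusted p = 0.631) did not pass. The strains were in different experiments, so strain and experiment cannot be told apart in this test, and the CD40L-KO groups are among those with Eif2s3y above Xist. Without the squamous arrays 0 of the 6 passed, in a fit that called 2 of all genes higher and 2 lower, at -0.65 for Tap1, -0.89 for Psmb8 and -0.76 for Psmb9. With the Gapdh ratio as a covariate Psmb8 alone passed, while Tap1 (-0.95, adjusted p = 0.153) and Psmb9 (-0.87, adjusted p = 0.0697) did not. Leaving out exposed CD40L-KO mouse 1 or 3, or control 5, ended the Tap1 call (adjusted p 0.0525 to 0.0674), and the replicate block ended that of Psmb9 (-0.88, adjusted p = 0.127).

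Within the day 32 experiment, where both strains shared cages, the effect differed by -1.71 for Tap1 (SE 0.39, adjusted p = 0.113), -1.54 for Psmb10 (SE 0.28, adjusted p = 0.0705), -1.48 for Psmb9 (SE 0.35, adjusted p = 0.117) and -1.45 for Psmb8 (SE 0.33, adjusted p = 0.111). None of the 6 genes passed, against 0.17% of all genes called in the limma fit, and 5 of the 6 had an unadjusted p under 0.05, as did 14.1% of all genes. Without C57BL/6 exposed mouse 2, the lowest responder, those 4 genes passed (adjusted p 0.00339 to 0.0135). The unexposed strains of day 32 differed by -0.30 for Tap1 to 0.29 for Psmb10, with 0 of 6 called and 0.0485% of all genes called; 681 genes and none of the 6 had an unadjusted p under 0.05.

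Exposed C57BL/6 lungs of day 75 held less of the transporter and immunoproteasome transcripts than those of day 32. Tap1 at day 75 was 7.76, 7.76 and 7.81 in C57BL/6 mice and 7.42, 7.41 and 7.46 in CD40L-KO mice. Psmb9 was 7.99, 8.04 and 7.78 in the former and 7.63, 7.65 and 7.78 in the latter. Compared with exposed C57BL/6 mice of day 32, Tap1 fell by 1.90, Psmb9 by 1.59, Psmb10 by 1.49, Psmb8 by 1.38 and Tapbp by 0.55, the last with an adjusted p of 0.0295. These 5 of 6 genes passed where 8.96% of all genes were called lower, and B2m was 0.21 higher (adjusted p = 0.269). The adjusted p-values of the first 4 lay between 4.27e-05 and 0.000184. The Tapbp call was lost without exposed mouse 1 or 3 of day 32 or any mouse of day 75 (adjusted p 0.055 to 0.136). The Gapdh ratio was 0.14 to 0.26 (log2) in the day 75 mice and -0.10 to 0.04 in the day 32 mice, without overlap. With that ratio as a covariate Tap1 (-1.59), Psmb10 (-1.44), Psmb9 (-1.43) and Psmb8 (-1.30) passed, with adjusted p-values of 0.00372 to 0.0123, and Tapbp did not (-0.56, adjusted p = 0.171). All-gene calls were then 117 higher and 180 lower, against 739 and 739 without the covariate. Summed macrophage and monocyte markers, in which Lyz2 weighs most, were 3756 to 3991 at day 75 and 5005 to 8251 at day 32. T cell markers were 380 to 390 and 503 to 1557, and B and plasma cell markers 3779 to 5457 and 1439 to 2106. The part of these cells in the differences was not tested. The day 75 mice differ from the day 32 mice in Eif2s3y, and days cannot be told apart from whatever set of arrays they belong to.

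Between strains at day 75, 0 of the 6 passed (0.327% of all genes called, 348 at an unadjusted p under 0.05 and none of the 6). In CD40L-KO mice B2m was 10.88 and 10.84 at day 39 and 11.32, 11.48 and 11.36 at day 75. That difference of 0.53 (SE 0.14) had an adjusted p of 0.0518, 0 of the 6 genes passed, and 3.42% of all genes were called; 2 of the 6 and 1548 of all genes had an unadjusted p under 0.05. Against the unexposed CD40L-KO mice of day 32, at 11.11, 10.60 and 10.98, B2m of day 75 was 0.49 higher (SE 0.13, adjusted p = 0.0262). It was the single gene of 6 that passed, in a comparison that called 5.57% of all genes higher. The B2m call was lost without the squamous arrays (0.41, adjusted p = 0.222) and without unexposed mouse 2 or exposed mouse 2 or 3 (adjusted p 0.0728 to 0.109).

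Ordered over the 19 groups, Tap1 was highest in exposed C57BL/6 mice of day 32 (9.68 ± 0.66, SD, n = 3), then of day 34 (8.94 ± 0.32, n = 10), day 41 (8.57 ± 0.33, n = 10) and day 14 (8.07 ± 0.32, n = 8), and lowest in the unexposed CD40L-KO mice labelled day 14 (7.32 ± 0.19, n = 5). The first 3 steps of that order exceeded the larger SD of the neighbours. Further down, a single step did so, that from CD40L-KO day 32 exposed (7.67 ± 0.03, n = 3) to C57BL/6 day 32 unexposed (7.63 ± 0.03, n = 2). Psmb8 had the same first 3 groups, at 10.23 ± 0.45, 9.88 ± 0.21 and 9.50 ± 0.20 for days 32, 34 and 41, and so did Psmb9 (9.53 ± 0.47, 8.76 ± 0.20 and 8.50 ± 0.28) and Psmb10 (9.89 ± 0.35, 9.20 ± 0.27 and 8.82 ± 0.16). Tapbp shared the first group (10.16 ± 0.30), and its next 5 group means lay between 9.65 and 9.72, closer together than their SDs.

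B2m had another order. Its highest means were those of the day 35 experiment, 12.30 ± 0.06 (n = 5) in unexposed and 12.10 ± 0.22 (n = 4) in exposed CD40L-KO mice. In mice it read 12.27, 12.36, 12.36, 12.28 and 12.24 without and 12.05, 11.93, 12.42 and 11.98 with exposure. The third mean was that of exposed C57BL/6 mice of day 34 (11.60 ± 0.38, n = 10), and the step down to it exceeded the larger SD; no later step did. The other CD40L-KO controls, of day 32, averaged 10.90 ± 0.26 (n = 3). Summed intensities of 9 macrophage and monocyte markers were also high in that experiment, at 5186 to 6359 in its controls and 6286 to 7256 in its exposed mice, against 3257 to 4096 in the day 32 CD40L-KO controls. Lyz2 weighs most in these sums, with a median intensity of 2555 over all arrays beside 357 for Cd14, the next brightest. Marker sums of lung epithelium and endothelium were high there too. Alveolar and airway sums (7 genes) were 28903 to 35621 in its controls and 34108 to 36788 in its exposed mice. The day 32 CD40L-KO controls gave 20438 to 23319. Endothelial sums (6 genes) were 4152 to 5152 and 4775 to 5375, against 3008 to 3932. Neutrophil sums were not high, at 578 to 1040 and 652 to 1819, against 746 to 2347. The part of any of these cells in the B2m level was not tested, and no C57BL/6 mice belong to that experiment.

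Across the 19 group means Pearson's r was 0.95 between Tap1 and Psmb8, 0.90 between Tap1 and Psmb9, 0.94 between Psmb8 and Psmb9 and 0.795 between Tap1 and Psmb10. B2m had r of 0.09 with Tap1, 0.19 with Psmb10, 0.26 with Psmb8, 0.44 with Psmb9 and 0.55 with Tapbp. Within groups, after taking each group's mean away, r over the 95 mice was 0.84 between Psmb8 and Psmb9, 0.67 between Tap1 and Psmb8, 0.64 between Tap1 and Psmb9 and 0.62 between Psmb8 and Psmb10. B2m within groups had r of 0.05 with Tap1, 0.15 with Tapbp, 0.16 with Psmb8, 0.23 with Psmb9 and -0.24 with Psmb10. Points of 1 array share its RNA, hybridization and scaling, so these values are a description.

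**Figure D3:**
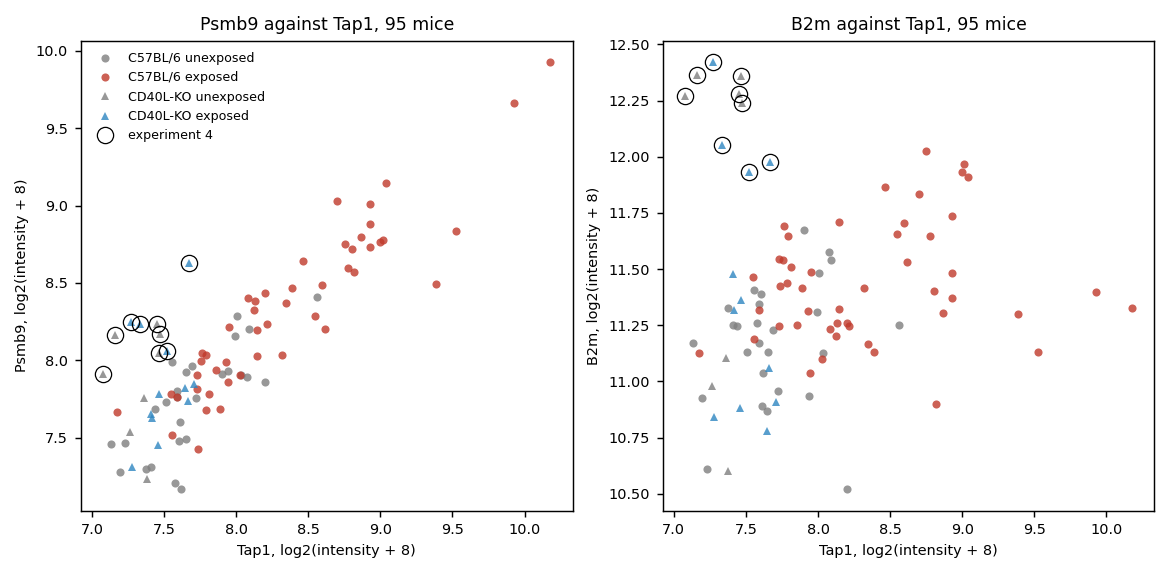
Psmb9 (left) and B2m (right) against Tap1 in the 95 mice, each axis in log2(intensity + 8); circles are C57BL/6, triangles CD40L-KO, grey unexposed and coloured exposed, and open rings mark the 9 arrays of the CD40L-KO day 35 experiment. Over group means r with Tap1 is 0.90 for Psmb9 and 0.09 for B2m, and the ringed arrays have B2m at 11.93 or more with Tap1 at 7.67 or less.

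The genes whose group means most resembled the mean profile of the 6 genes over the 19 groups, among genes brighter than the median, were Gbp2 (r 0.98), AW112010 (0.95), Igtp (0.94), H2-K1 (0.93), Gbp7 (0.93), Gbp3 (0.92), Ifi47 (0.91), Psme1 (0.91), Slfn2 (0.91) and Saa3 (0.91). Gbp2, Gbp3 and Gbp7 are guanylate-binding proteins and Igtp and Ifi47 immunity-related GTPases, both interferon-inducible families. H2-K1 is a class I heavy chain, and Psme1 is a subunit of the PA28 proteasome activator. Gbp2 differed by 2.40 (log2) at C57BL/6 day 32 and 1.63 at day 34, and the acute-phase gene Saa3 by 5.30 and 3.95.

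Other genes of the pathway were read from lists by role, in the fits of all mice, squamous arrays included. Of all genes, 1.35% were called higher at C57BL/6 day 32 and 5.26% at day 34. Of 12 class I heavy chain genes measured, 4 rose at C57BL/6 day 34: H2-Q4 by 1.56, H2-M2 by 1.03, H2-D1 by 0.74 and H2-K1 by 0.60. The median of those 12 was 0.10. At day 32 only H2-Q4 passed (1.00, adjusted p = 0.0498), with H2-K1 at 0.84 (adjusted p = 0.0518) and H2-D1 at 0.66 (adjusted p = 0.0882). Heavy chain genes are close in sequence, and probe sets may not separate them. Of 10 transport, loading and trimming genes, Tap2, the partner of Tap1, rose at day 34 (0.51, adjusted p = 0.0358) and measured 0.86 at day 32 (adjusted p = 0.0968). The other 9 did not pass on either day. Calr (0.3 to 10.6 intensity units) and Lap3 (1.6 to 16.1) among them were too dim to read a change from.

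The constitutive proteasome subunits were read beside the inducible ones. Psmb5, the constitutive counterpart of Psmb8, differed by 0.16 at day 32 (adjusted p = 0.646) and rose by 0.97 at day 34 (SE 0.25, adjusted p = 0.0153). At day 41 of the same experiment Psmb5 differed by -0.05 (SE 0.25). Psmb6, the counterpart of Psmb9, differed by 0.45 and 0.40 at days 32 and 34 (adjusted p = 0.23 and 0.1). Psmb7, the counterpart of Psmb10, differed by 0.26 and 0.10 (adjusted p = 0.386 and 0.611). Of the 14 constitutive 20S core genes, 0 passed at day 32 and 3 rose at day 34 (Psmb5, Psma7 by 0.46 and Psmb2 by 0.35), with medians of 0.28 and 0.23. The shares of all genes called higher on those days were 1.35% and 5.26%. Of the 20 genes of the 19S cap, which recognises and unfolds ubiquitin-tagged proteins, 0 passed on either day. Psmd2 (2.4 to 20.1 intensity units) and Psmc4 (1.7 to 25.8) among them were dim. Among 6 activator and assembly genes measured, Psme1 rose at day 34 by 0.92 (adjusted p = 7.89e-07) and the assembly chaperone Psmg2 by 0.85. None passed at day 32, where Psme1 measured 0.83 (adjusted p = 0.0931). The inhibitor Psmf1 on that list was not measured.

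Of 19 measured genes of interferon signalling and its regulators, 3 rose at day 32 (the cytokine-signalling inhibitors Socs1 by 2.51 and Socs3 by 0.83, and the transcription factor Irf8 by 1.13) and 6 at day 34, among them Socs1 by 1.36, Relb by 0.76, Irf1 by 0.65 and Irf9 by 0.59. Ifng itself differed by 1.14 at day 32 (adjusted p = 0.123) and by 0.28 at day 34 (adjusted p = 0.362). Its probe set was dim, at 0.2 to 22.5 intensity units over all arrays (median 1.4), and the offset of 8 understates such differences. The class II pathway, which presents peptides from the endocytic route to CD4 T cells, had 7 of 12 genes up at day 32, 8 of 12 at day 34 and 2 of 12 at day 41. Of all genes, 1.35% were called higher at day 32, 5.26% higher at day 34 and 0.388% either way at day 41. Ifi30, a lysosomal thiol reductase, led at day 32 (1.75) and day 34 (1.58), and Ctss, a protease that trims the invariant chain, rose by 0.81 at day 41. In CD40L-KO mice at day 35 none of these genes passed, in a fit that called 0% of all genes.

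**Figure D4:**
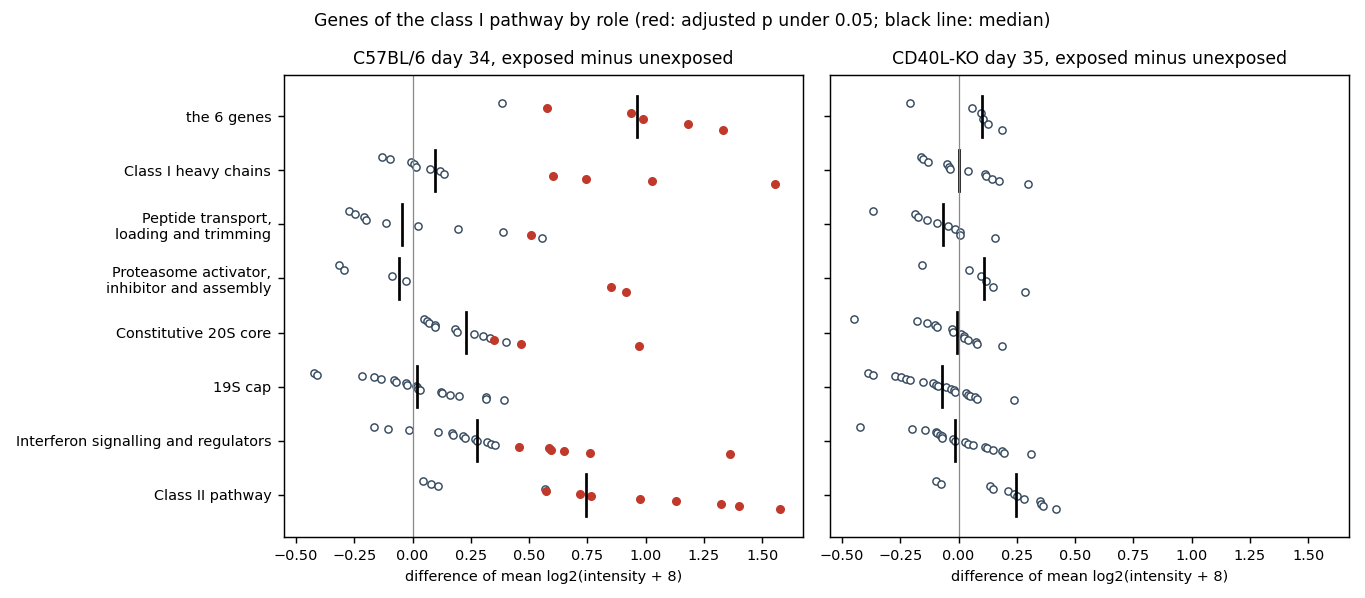
Difference of mean log2(intensity + 8), exposed minus unexposed, for the 6 genes and 7 lists of the antigen processing pathways at C57BL/6 day 34 (left) and CD40L-KO day 35 (right); each point is a gene, red where the adjusted p over all genes is under 0.05, and black lines are list medians. At C57BL/6 day 34 the median of the 6 genes is 0.96, that of the constitutive 20S core 0.23 and that of the 19S cap 0.02. At CD40L-KO day 35 no point is red, where 0% of all 8252 genes were called.

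Markers of some immune cell types rose in the same mice, and those of others did not. Of 9 macrophage and monocyte markers, 6 rose at C57BL/6 day 32 and 5 at day 34, among them the complement genes C1qb (1.83 and 1.48), C1qc (1.80 and 1.24) and C1qa (1.54 and 1.47). At day 32 the intensities of all 9 summed to 5005 to 8251 with exposure and 3803 to 4031 without. At day 34 they summed to 4392 to 7105 against 3523 to 5766. Lyz2 weighs most in these sums. Of 10 T cell markers, Cd3d alone rose at day 32 (1.40) and 4 rose at day 34, including Cd3e (1.24). T cell marker sums were 503 to 1557 against 307 to 309 at day 32 and 575 to 758 against 378 to 774 at day 34. Of 7 B and plasma cell markers, 0 rose on those days and 2 fell at day 34, Cd79a by 0.61 and Ms4a1 by 0.55, where 2.96% of all genes were called lower; the shares called higher were 1.35% at day 32 and 5.26% at day 34. None of 6 NK and cytotoxic cell markers passed on either day, and Ncr1 among them was dim (1.0 to 19.8 intensity units). Intensities of 8 neutrophil markers summed to 918 to 1155 with exposure and 1254 to 1613 without at day 32. At day 34 those sums were 652 to 1112 against 703 to 1574. The part of these cells in the values of the 6 genes was not tested.

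The remaining probe sets of Tap1 and Tapbp were fitted with every probe set tested. The second Tap1 probe set was dim, at intensities of 1.64 to 29.7 against 127 to 1150 for the main one. It differed by 0.48 at C57BL/6 day 32 and by -0.27 at day 34, and passed at neither (adjusted p = 0.408 and 0.366). Averaging both Tap1 probe sets gave 1.27 at day 32 and 0.53 at day 34, both past the threshold, and -0.32 (adjusted p = 0.641) for the day 35 against day 34 difference in effect, which ended that call. The other Tapbp probe sets differed by 0.92 and 0.55 at day 32 and by 0.67 and 0.01 at day 34, none past the threshold, and the mean of all 3 passed at day 32 (0.78, adjusted p = 0.036) and not at day 34 (0.36, adjusted p = 0.179).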

How the data were processed

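Total RNA from lung homogenates was biotin-labelled by in vitro transcription and hybridized to Affymetrix arrays, per the labels' protocols. The authors deposited 1 linear intensity per probe set and array; the method of summarising probes was not given in the sources used here. With the extreme 2% trimmed from either side, array means were 100.05 to 100.07, which shows that the deposited table had been brought to a common scale, and no scaling was added. Intensities were used as log2(intensity + 8), which understates fold changes of dim probe sets.

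Names came from the platform annotation, which gave 10855 probe sets 1 symbol, 396 several and 1236 none; 1 named probe set with a missing value was left out. Each gene was its brightest probe set. Groups followed the labels. Groups of 1 experiment were fitted together with limma 3.58.1 (lmFit, eBayes) under R 4.3.3, days 39 and 75 with the day 32 groups (7 groups), and the day 35 against day 34 effect on 4 groups. This gave 16 comparisons, with Benjamini-Hochberg adjustment over 8252 genes and a threshold of 0.05; scripts were tested on simulated data. Fold changes are on the offset scale. The number of arrays limits precision.

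The 6 genes and the lists were chosen with earlier results of these data known. Named genes were the 6, up to 4 called genes of each list by size or else the 2 with the smallest p, 11 genes always allowed, and the 10 most alike over group means. Alternatives were offsets 2 and 32, a filter keeping 5501 brighter genes, quantile normalization, all arrays fitted at once, averaged probe sets, every probe set tested, the replicate block, squamous, muscle and Gapdh covariates, and leaving out arrays. Same-numbered mice did not pair: correlations of their deviations ran from -0.42 to 0.51. Summaries were made in Python 3.11.15 with numpy 2.4.6 and pandas 2.3.3, and plots with matplotlib 3.10.9. Promoters are RefSeq's.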

Additional observations from a re-analysis of the deposited data

Results flagged for a closer look

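Of 72 combinations of a gene and a group of 4 to 10 mice, 4 had a mouse far from the others by Dixon's criterion; chance alone gives about 1 in 20 such groups. Tap1 in the unexposed C57BL/6 mouse numbered 1 of day 7 was 7.37, below the others at 7.55 to 7.59. Psmb8 in exposed C57BL/6 mouse 1 of day 21 was 9.14, above the others at 8.62 to 8.81. Psmb8 in exposed CD40L-KO mouse 4 of day 35 was 9.11, above 8.86 to 8.88. Psmb10 in unexposed C57BL/6 mouse 4 of day 41 was 8.65, above 8.40 to 8.42.

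For 3 genes the exposure effect of CD40L-KO mice at day 35 differed from that of C57BL/6 mice at day 34 in the limma test of the difference itself: Tap1 by -1.21 (adjusted p = 0.0214), Psmb8 by -0.93 (adjusted p = 0.00584) and Psmb9 by -1.0 (adjusted p = 0.0119). All 10 exposed C57BL/6 mice lay above all 5 of their controls for these genes, as held for 1.26% of all genes. Of those 5 controls, 4 were squamous arrays. The exposed CD40L-KO mice overlapped with their own controls, although 3 of 4 exceeded every control for Psmb9. The test of the difference called 0.473% of all genes lower, and strain and experiment cannot be told apart in it.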

How the results depend on the processing

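The count of the 6 genes called changed as follows. The share of all genes called can move with the setting too and is given here for the main fits only. It was 1.35% higher at C57BL/6 day 32, 5.26% higher at day 34 and 0.388% at day 41. The effect differences had 0.17% (day 32), 0.473% lower (day 35 against 34) and 0.109% (day 41 against 34). Day 75 had 3.42% (against day 39), 5.57% higher (against unexposed CD40L-KO) and 8.96% lower (C57BL/6 against day 32). C57BL/6 day 32 (4) gave 5 at offset 32, without dim genes, with all arrays in 1 fit and with averaged probe sets, 0 with both tissue scores, 0 without squamous arrays and 0 to 5 with 1 array left out. C57BL/6 day 34 (5) gave 6 with all arrays in 1 fit, 4 with the Gapdh ratio, 4 in the pooled comparison, 0 without squamous arrays and 4 to 5 with 1 array left out. C57BL/6 day 41 (0) gave 1 with all arrays in 1 fit and 0 to 1 with 1 left out. The day 32 effect difference (0) gave 1 at offset 32, 1 without dim genes, 4 with all arrays in 1 fit and 0 to 4 with 1 left out. The day 35 against day 34 difference (3) gave 5 with all arrays, 2 with averaged probe sets, 2 with the replicate block, 1 with the Gapdh ratio, 0 without squamous arrays and 2 to 4 with 1 left out. Day 41 against day 34 (0) gave 3 with all arrays and 0 to 2 with 1 left out. Day 75 against 39 in CD40L-KO (0) gave 1 at offset 32, without dim genes, with quantile normalization and without squamous arrays. CD40L-KO day 75 against unexposed day 32 (1) gave 2 at offset 32 and without dim genes, 0 with all arrays, with the squamous score, with both scores and without squamous arrays, and 0 to 1 with 1 left out. C57BL/6 day 75 against 32 (5) gave 4 with the Gapdh ratio and 4 to 5 with 1 left out. A group left with 1 array borrows its spread from the rest of the fit. The causes were not tested. With the replicate number as a block, B2m at day 34 lost its call (0.63, adjusted p = 0.0564), Tapbp gained one (0.54, adjusted p = 0.0113) and Psmb9 lost its strain difference (-0.88, adjusted p = 0.127); the numbers do not pair the mice. Over the results of single genes, with the counts of genes called not included, settings other than leaving out 1 array left 1066 results alike. Of the rest, 24 gained and 28 lost a call and 40 moved. No called result reversed. The pooled comparison was added after seeing the data.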
